A study of Mus musculus with 16 samples.

Results

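The TRAV12 family is a group of variable (V) segments of the mouse T cell receptor alpha chain (TRA), with the members TRAV12-1, TRAV12-2 and TRAV12-3. A cell was assigned to the family when its productive, high-confidence TRA chain with the most unique molecular identifiers (UMIs, counted cDNA molecules) carried a TRAV12 segment, with the duplicated copies lettered D and N merged into their member. By that rule 336 of the 4935 cells with a TRA chain belonged to the family: 36 carried TRAV12-1, 180 TRAV12-2 and 120 TRAV12-3. Of these cells, 331 also had a beta chain (TRB), and they formed 264 clonotypes, a clonotype being cells of a library whose alpha and beta chains agreed in V, J and CDR3 nucleotides.

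The receptors came from T cells of liver tumours grown from Hepa1-6, a mouse hepatoma line injected into a liver lobe of C57BL/6 mice, and single cells were profiled with a 5′ droplet method. Tumours were taken at 5 or 14 days from control mice (CON, CD4creMatr3WT/WT) and conditional knockout mice (KO, CD4creMatr3fl/fl), with 2 receptor libraries in each of the 4 groups. Both genotypes carried Cre recombinase driven by the Cd4 promoter, and the floxed gene encodes matrin 3, a nuclear-matrix protein with RNA- and DNA-binding domains. Because developing thymocytes pass through a stage with CD4 and CD8 together, Cd4-driven Cre acts in both lineages, and receptor tables do not tell CD4 from CD8 cells. Whether libraries of the same group derive from separate mice is not stated in the labels, so every p-value measures the spread between libraries, which may be technical.

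Libraries held 388 to 1236 cells with a TRA chain and 7683 to 31936 UMIs. The median TRA chain of the family's cells had 4 UMIs in each of the 8 libraries. Cells with TRAV11 joined to TRAJ18, the chain of invariant natural killer T cells, are called iNKT-type here from the alpha chain alone. They made up 25.9% to 30.4% of TRA cells at day 5 and 3.16% to 5.80% at day 14, and they touch every share below that is taken over all cells. The cells called other conventional are those with neither a TRAV12 segment nor that chain. Across libraries, 21 barcodes occurred more than once. They included 3 cells of the family, none with the same TRA CDR3 in the other library. The knocked-out gene cannot be read from receptor tables, and the series' RNA libraries were not analysed here.

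A TRA gene is assembled in the thymus by joining a V segment to a joining (J) segment. The first joins tend to use J segments near the V cluster, which carry high numbers, and later rounds on the same allele use more distant V segments and J segments with lower numbers. The germline V segment supplies the CDR1 and CDR2 loops, which mostly contact the MHC molecule, and the V-J junction forms CDR3, which mostly contacts the peptide. In the C57BL/6 genome a stretch of V segments has been duplicated, so a family such as TRAV12 lies in several copies along the locus. Alpha chains of the TRAV12 family are found in conventional T cells and do not mark an invariant lineage.

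The CDR1 loops of the copies are shown because they separate copies of the same member. Each was the same in every cell that carried it. They are read 5′ to 3′ from the deposited contigs, and capitals mark bases that differ between the copies of a member.
TRAV12-1 CDR1: actActtaTtTaACtAttgcc
TRAV12D-1 CDR1: actGcttaCtCaGAtGttgcc
TRAV12-2 CDR1: aGtacttactcacctttc
TRAV12D-2 CDR1: aCtacttactcacctttc
TRAV12-3 CDR1: actatttactcaaatGctttc
TRAV12D-3 CDR1: actatttactcaaatCctttc

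The CDR1 of TRAV12-1 and TRAV12D-1 differed at 6 of 21 bases. The copies of the other members differed at 1 base each, and CDR1 of the TRAV12-2 copies was 18 bases long against 21 in the others. CDR2 was nearly one sequence in the whole family. A single base varied, again in capitals: the capital T was present in TRAV12-2 and TRAV12D-3, and the capital C in TRAV12D-2 and TRAV12-3.
TRAV12-2 CDR2: agctTcacagacaacaagagg
TRAV12D-2 CDR2: agctCcacagacaacaagagg
In TRAV12-1 and TRAV12D-1 the CDR2 was identical, with the C.

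On chromosome 14 of GRCm38.p6, RefSeq places the copies without a letter closest to the TRAJ cluster and the D copies farthest from it. TRAV12-1 is at chr14:53538266-53538738, TRAV12-2 at chr14:53616397-53616914 and TRAV12-3 at chr14:53621752-53622245. These lie 616, 538 and 533 kb before the start of the first annotated TRAJ segment. TRAV12D-1 is at chr14:52844560-52845041, TRAV12D-2 at chr14:52915915-52916426 and TRAV12D-3 at chr14:52929789-52930282, which are 1310, 1239 and 1225 kb before it. The N copies lie between these blocks, and no cell of the family was assigned to one. Among all TRA cells 738 carried a V name with N and 1497 a name with D, so the N names were in use for other segments. Whether the reference used for naming held the TRAV12 N copies could not be checked. A chain from an N copy could therefore carry another name, and the comparisons of copies below rest on the deposited names.

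Both blocks contributed to each member. The member TRAV12-1 had 23 clonotypes of the copy without a letter and 11 of TRAV12D-1. TRAV12-2 had 77 and 52, and TRAV12-3 had 38 and 63, so that only in this last member did the D copy hold more clonotypes. Of the 264 clonotypes, 126 (47.7%) used a D copy, and the share per library was 46.9 ± 4.71% at day 5 and 47.9 ± 8.49% at day 14 (SD, n = 4 libraries each). It ran from 38.7% to 56.5% over the 8 libraries, and both days covered overlapping ranges. All 264 clonotypes, including the 23 of 2 or more cells, had a single copy name, so the deposited assignment did not split a clonotype between copies.

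The D copies were joined to lower-numbered TRAJ segments than the copies without D. In the order day 5 CON, day 5 KO, day 14 CON and day 14 KO, replicate 1 before 2, the mean TRAJ number of D-copy clonotypes was 22.1, 21.9, 20.2, 26.6, 22.9, 24.0, 22.2 and 20.2. For copies without D it was 34.1, 33.6, 32.2, 38.8, 30.6, 36.6, 30.5 and 35.7. The highest D-copy mean was below the lowest mean of the other copies, in every genotype and at both days. The difference was -11.5 ± 2.50 segments (SD, n = 8 libraries) and had the same sign in 8 of 8, with an exact sign-flip p of 0.00781, the smallest that 8 libraries allow. This comparison was added after values had been seen. Other conventional clonotypes, with a mean of 29.4 over all libraries, lay between both kinds of copy.

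The copies differed at both ends of the J cluster. TRAJ segments numbered 40 or higher, which lie nearest to the V segments, were used by 47 of 138 clonotypes without D (34.1%) and by 9 of 126 D-copy clonotypes (7.14%). Segments numbered below 20 were used by 14 (10.1%) and 50 (39.7%), respectively. The middle of the cluster, from 20 to 39, took 55.8% and 53.2%. Of the other conventional clonotypes, 25.2% used a TRAJ of 40 or higher and 22.7% one below 20.

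**Figure D1:**
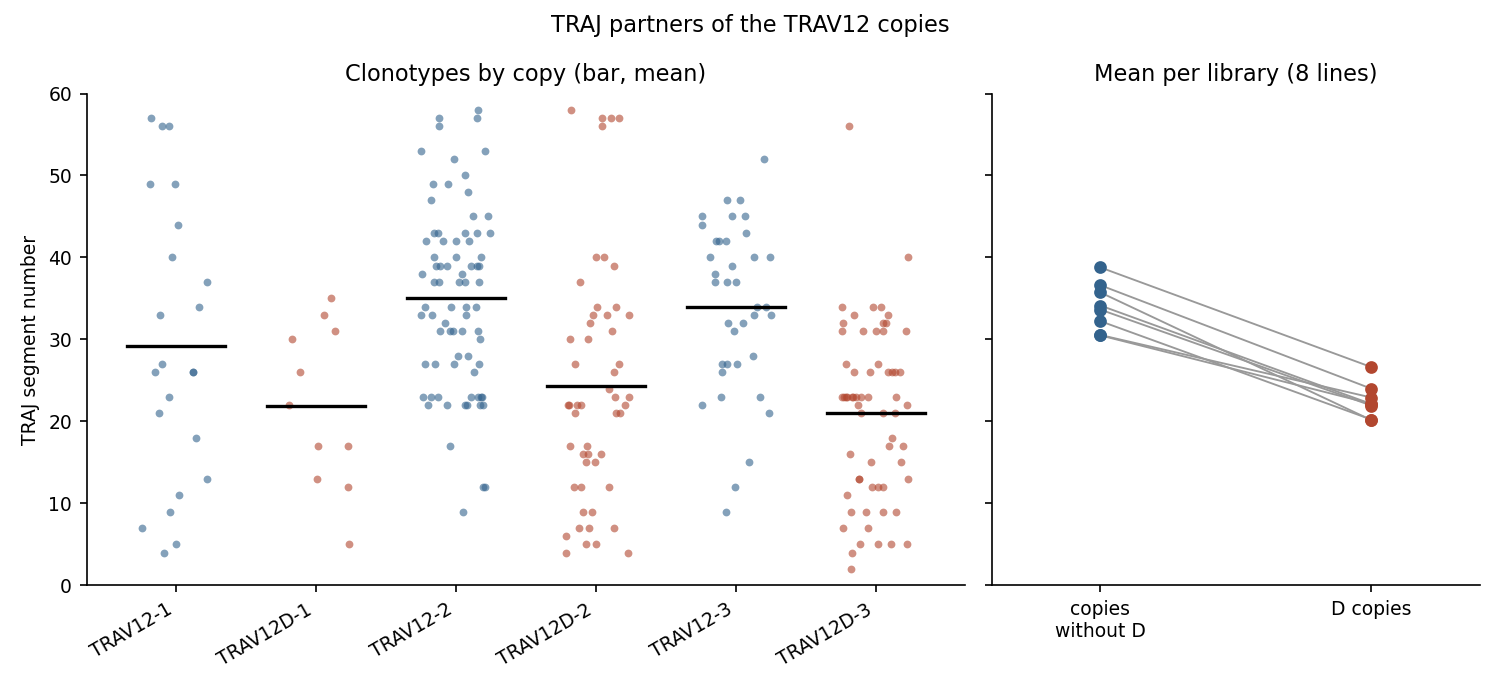
Left, TRAJ segment number (vertical axis) of each of the 264 paired TRAV12 clonotypes by copy, with a bar at the mean. Right, the mean of each of the 8 libraries for copies without D and for D copies, joined by a line. Every line falls, and the D-copy means (20.2 to 26.6) lie below all means of the copies without D (30.5 to 38.8).

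Within members, the difference passed for TRAV12-3 and TRAV12-2. These comparisons were also added after values had been seen, and they split the same clonotypes. TRAV12-3 clonotypes had a mean TRAJ number of 34.0 in the copy without D and 21.0 in TRAV12D-3, and the mean difference over libraries was -14.1 ± 7.24 (lower in 8 of 8, exact p = 0.00781, adjusted over the 3 members 0.0234). For TRAV12-2 the means were 35.1 and 24.3, with a difference of -11.4 ± 8.22 (lower in 7 of 8, exact p = 0.0156, adjusted 0.0234). TRAV12-1 had 29.2 and 21.9, and its difference of -3.95 ± 12.8 over the 7 libraries with both copies did not pass (lower in 5 of 7, exact p = 0.375). None of the 11 TRAV12D-1 clonotypes used a TRAJ of 40 or higher, against 7 of the 23 of the copy without D.

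The same direction was present in contigs that did not define the family. Non-productive TRA contigs in cells can be out-of-frame or stop-containing rearrangements, which encode no receptor, or incomplete assemblies, and 91 of the 199 with a TRAV12 segment had no CDR3 read. Among those with a TRAV12 segment and a named TRAJ, 90 contigs of D copies had a mean TRAJ number of 21.7 and 105 of the other copies 31.0. The D-copy mean was the lower in 8 of 8 libraries. With repeats of the same rearrangement in a library counted once, the means were 20.5 (66 rearrangements) and 31.1 (77). The pattern was also not particular to TRAV12. In 25 other TRAV segments with both kinds of name, 618 D-copy clonotypes had a mean TRAJ number of 24.2 and 812 without a letter 33.5, lower for D in 8 of 8 libraries, and 14 of the 17 segments with at least 10 clonotypes of each kind had the same direction.

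TRAV12-1 was the rarest member in every library. Its share of TRA cells, in the library order above, was 0.864%, 1.14%, 0.711%, 1.29%, 0.566%, 0.415%, 0.598% and 0.683%. These shares rest on 3 to 7 cells a library, so the 95% Wilson interval of the lowest, counting error only, was 0.141% to 1.21%. TRAV12-2 took 2.38%, 5.37%, 3.79%, 3.35%, 3.32%, 2.63%, 3.78% and 4.78%. TRAV12-3 took 3.02%, 2.44%, 3.55%, 2.06%, 2.18%, 2.90%, 2.19% and 1.54%. No library of TRAV12-1 reached the lowest library of either other member, while TRAV12-2 and TRAV12-3 overlapped.

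The mean shares were 0.783 ± 0.298% for TRAV12-1, 3.67 ± 1.01% for TRAV12-2 and 2.49 ± 0.640% for TRAV12-3 (SD, n = 8). TRAV12-1 was below TRAV12-2 by 2.89 points and below TRAV12-3 by 1.70 points, each in 8 of 8 libraries (exact sign-flip p = 0.00781, adjusted over 15 comparisons between members 0.0293). TRAV12-2 exceeded TRAV12-3 by 1.19 points in 6 of 8 libraries, which did not pass (exact p = 0.0547, adjusted 0.164). Counted by clonotype, the shares were 1.05 ± 0.213%, 4.18 ± 1.13% and 3.16 ± 0.743%, and the same pairs passed (adjusted exact p = 0.0293). With possible doublets left out, the clonotype difference between TRAV12-1 and TRAV12-3 no longer passed (adjusted exact p = 0.0586). Among the 47 merged TRAV segments of the series, TRAV12-2 ranked 9th by cells and 4th by clonotypes. The other measures compared between members (mean TRAJ number, CDR3 length, cells in clonotypes of 2 or more) did not pass.

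**Figure D2:**
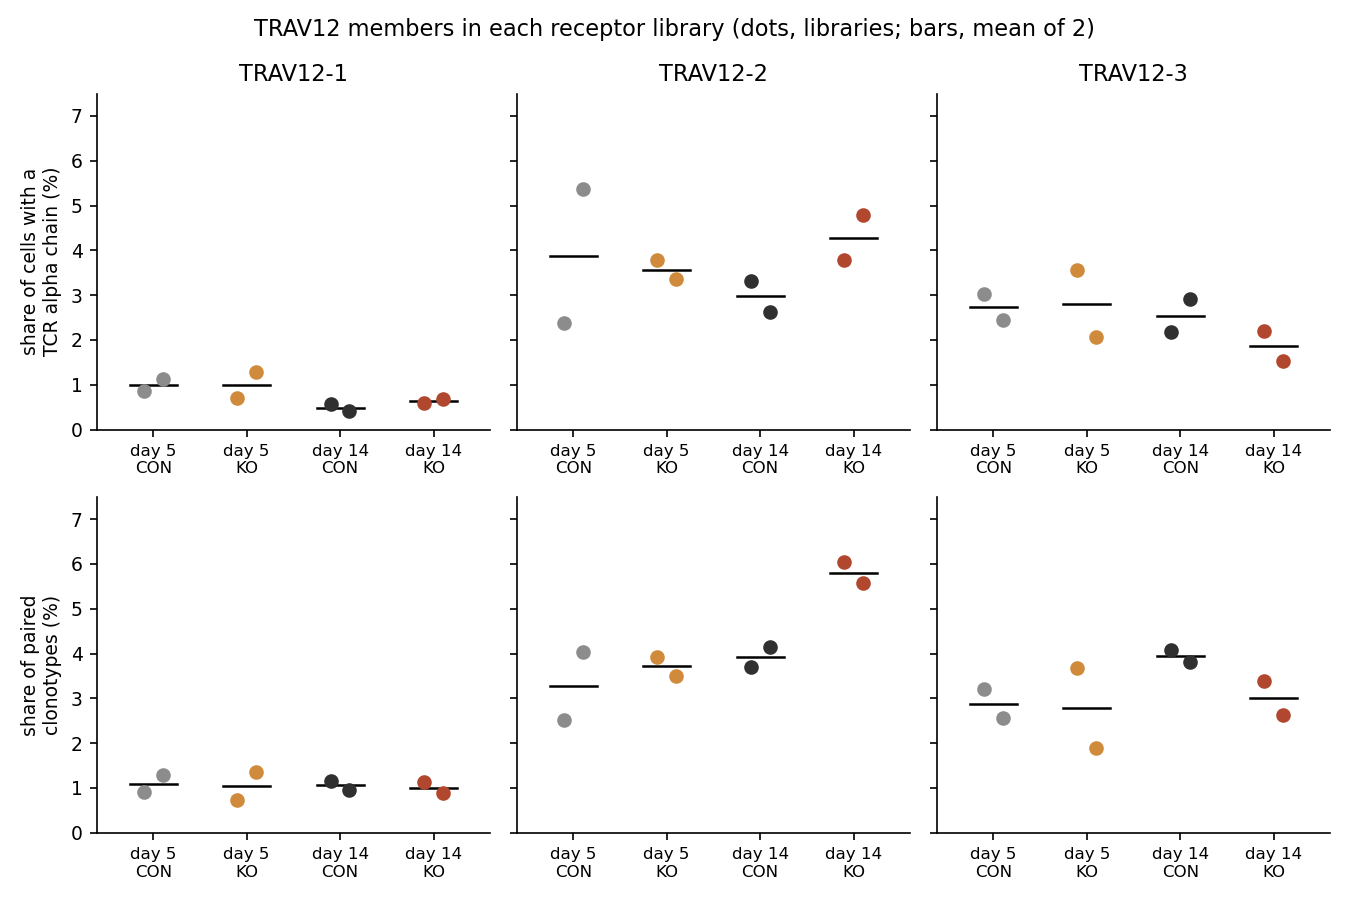
Share of TRA cells (top row, %) and of paired clonotypes (bottom row, %) for each TRAV12 member, with 1 dot per library and a bar at the mean of the 2 libraries of a group. TRAV12-1 lies lowest in every group, and at day 14 the TRAV12-2 clonotype share of the KO libraries (5.57% and 6.04%) lies above that of the CON libraries (3.69% and 4.14%). That difference was not called, and how many other segments separated in this way was not counted.

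No member was called for a difference between KO and CON. TRAV12-2 and TRAV12-3 were tested within an edgeR quasi-likelihood fit of all V and J segments seen in 40 or more cells or clonotypes, with Benjamini-Hochberg adjustment. TRAV12-1, with 36 cells and 34 clonotypes, was below that minimum. Per cell, 0 of the 2 members and 0% of the 98 segments were called at day 5, at day 14, over both days or for the difference of the genotype effect between days. At an unadjusted p under 0.05 there were 1, 11, 5 and 5 segments, and DESeq2 called 0 in each. Per clonotype, 0 of the 2 members and 0% of 87 segments were called in these comparisons, with 3, 8, 7 and 6 at an unadjusted p under 0.05 and 0 by DESeq2.

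In clonotype shares at day 14 the genotypes did not overlap for TRAV12-2 and TRAV12-3, in opposite directions. TRAV12-1 overlapped, with 1.17% and 0.955% in CON and 1.13% and 0.880% in KO. By cells, in the shares given above, the genotypes overlapped for TRAV12-3 only, TRAV12-1 resting on 3 to 7 cells a library. Groups of 2 libraries can separate without a difference, and how many of the other segments did so was not counted. TRAV12-2 took 3.69% and 4.14% of CON clonotypes and 6.04% and 5.57% of KO clonotypes, so the groups did not overlap. The fitted KO to CON log2 ratio was 0.58 ± 0.35 (SE), with an edgeR adjusted p of 0.541. TRAV12-3 took 4.08% and 3.82% in CON and 3.40% and 2.64% in KO, also without overlap, at -0.42 ± 0.41 (edgeR adjusted p = 0.780). At day 5 the values were 0.15 ± 0.36 for TRAV12-2 and -0.01 ± 0.41 for TRAV12-3 (edgeR adjusted p = 0.902 and 0.980). The difference between the days in the genotype effect was 0.43 ± 0.51 for TRAV12-2 and -0.41 ± 0.58 for TRAV12-3 and did not pass (edgeR adjusted p = 0.903 for both).

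Per cell, the day 14 log2 ratio of KO to CON was 0.52 ± 0.51 for TRAV12-2 and -0.44 ± 0.56 for TRAV12-3 (edgeR adjusted p = 0.627 and 0.691). These ratios moved with the chains counted and with single libraries: with every productive TRA chain they were 0.78 and -0.086, and with 1 library left out they ran from 0.34 to 0.70 and from -0.71 to -0.20. At day 5 the ratio was -0.13 ± 0.53 and 0.05 ± 0.56 (edgeR adjusted p = 0.969 for both). Split by copy, TRAV12-2 without D was found in 9 and 7 CON cells and in 8 and 25 KO cells at day 14, and TRAV12D-2 in 32 and 12 CON cells and in 11 and 3 KO cells. With copies kept apart the log2 ratio at day 14 was 1.79 ± 0.74 for TRAV12-2 without D and -0.68 ± 0.74 for TRAV12D-2, and neither passed (edgeR adjusted p = 0.356 and 0.626). Counted by clonotype at day 14, TRAV12-2 without D had 7 and 7 in CON and 8 and 16 in KO, and TRAV12D-2 had 12 and 6 in CON and 8 and 3 in KO. By cells, 21 of the 32 TRAV12D-2 cells of CON replicate 1 and 9 of the 25 TRAV12-2 cells of KO replicate 2 were 1 clonotype each.

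Between day 5 and day 14, 10.2% of segments were called per cell (10 of 98, 9 by DESeq2, 22 at an unadjusted p under 0.05) and 14.9% per clonotype (13 of 87, 5 by DESeq2, 26 unadjusted). Neither TRAV12-2 nor TRAV12-3 was among them. Per cell the log2 ratio of day 14 to day 5 was -0.07 ± 0.36 for TRAV12-2 and -0.34 ± 0.38 for TRAV12-3 (edgeR adjusted p = 0.904 and 0.616). Per clonotype it was 0.41 ± 0.25 and 0.32 ± 0.28 (edgeR adjusted p = 0.230 and 0.462), beside a median of 0.41 over the 28 TRAV segments tested. TRAV12-1, fitted only with the minimum removed, had -0.81 ± 0.47 per cell and -0.05 ± 0.49 per clonotype (edgeR adjusted p = 0.411 and 0.940).

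The family's total share depended on whether iNKT-type cells stood in the denominator. Over all TRA cells it was 6.26%, 8.94%, 8.06% and 6.70% in the day 5 libraries and 6.07%, 5.95%, 6.57% and 7.00% in the day 14 libraries, and the days overlapped. Without iNKT-type cells it was 8.92%, 12.1%, 11.4% and 9.63% at day 5 and 6.27%, 6.14%, 6.83% and 7.43% at day 14. Here the days did not overlap, with means of 10.5 ± 1.48% and 6.67 ± 0.589% (SD, n = 4 each). Counted by clonotype without iNKT-type cells, the shares were 10.6 ± 1.06% at day 5 and 10.1 ± 0.823% at day 14, and they overlapped. Over all clonotypes, iNKT-type ones included, it was 7.40 ± 0.848% at day 5 (6.64% to 8.35%) and 9.38 ± 0.797% at day 14 (8.92% to 10.6%), without overlap and higher at day 14. Whether the days were apart, and in which direction, thus differed with the denominator and between cells and clonotypes. These summed shares are a description and were not tested. In the fit without iNKT-type cells the day 14 to day 5 log2 ratio per cell was -0.50 ± 0.34 for TRAV12-2 and -0.77 ± 0.37 for TRAV12-3, and neither passed (edgeR adjusted p = 0.403 and 0.249).

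**Figure D3:**
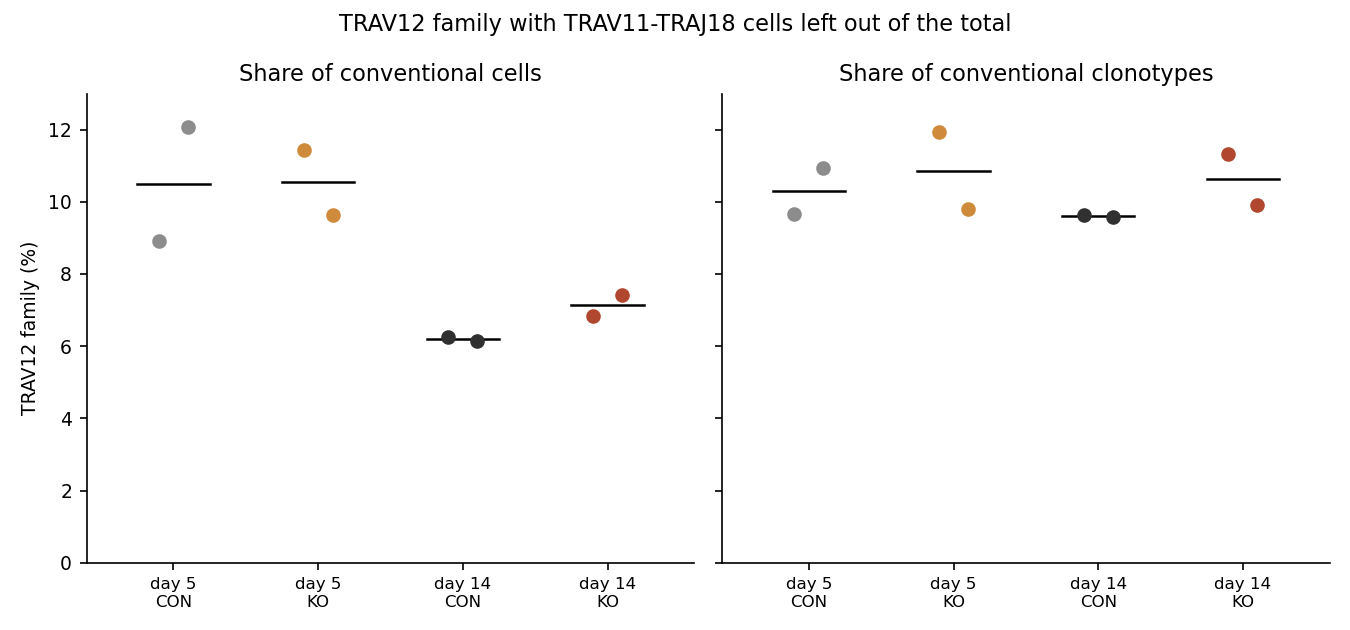
TRAV12 family as a percentage of conventional TRA cells (left) and of conventional paired clonotypes (right), iNKT-type cells left out, with 1 dot per library and a bar at the mean of 2. On the left all day 14 libraries (6.14% to 7.43%) lie below all day 5 libraries (8.92% to 12.1%), and on the right the days overlap.

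T cells that meet their antigen divide, so a clonotype with many cells in a tumour is called expanded, and here that meant 2 or more cells of a library. At day 14 a smaller part of the family's cells was in expanded clonotypes than of the other conventional cells in each library. In CON it was 46.7% of family cells against 68.9% of the others in replicate 1, and 51.2% against 69.1% in replicate 2. In KO it was 16.1% against 60.1% and 31.7% against 55.0%. The mean difference was -26.9 ± 11.7 points (SD, lower in 4 of 4), and the exact sign-flip p was 0.125, the smallest that 4 libraries allow.

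At day 5 few cells of either kind were in expanded clonotypes. The family had 0% in 3 libraries, where the others had 6.99%, 5.04% and 3.83%, and 29.1% against 16.0% in CON replicate 2. Over all 8 libraries the family's share was 21.9 ± 21.0% and that of the others 35.6 ± 30.1%. The difference of -13.8 points, lower in 7 of 8, did not pass (exact sign-flip p = 0.0625, adjusted over 8 measures 0.313), and without clonotypes of 10 or more cells, an alternative chosen after seeing the data, it was -5.76 points. From day 5 to day 14 the gap, family minus others, changed by -26.2 points (exact permutation within genotype, p = 0.0556, the smallest that its 36 relabelings allow, in a comparison added after values had been seen). Without clonotypes of 10 or more cells that change was -13.5 points (exact permutation p = 0.222).

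**Figure D4:**
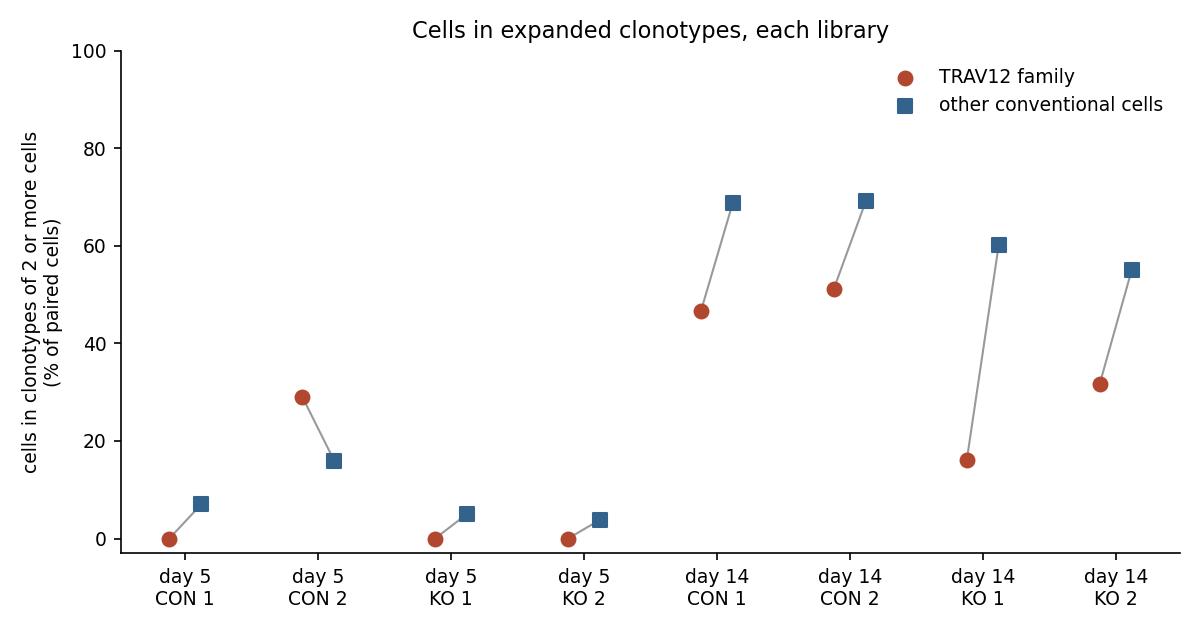
Percentage of paired cells in clonotypes of 2 or more cells (vertical axis) for the TRAV12 family (circles) and the other conventional cells (squares) of each library, joined by a line. The circle lies below the square in all libraries except day 5 CON replicate 2. The gap at day 14 runs from 51.2% against 69.1% (CON replicate 2) to 16.1% against 60.1% (KO replicate 1).

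Pooled over the 4 libraries of day 14, the family had a smaller share of expanded clonotypes, and a smaller share of its cells in large ones. Of the 133 family clonotypes 14.3% were expanded, against 22.6% of 1196 others. In CON it was 18.9% against 23.7%, and in KO 8.47% against 21.0%. By library, 6 of 46 and 8 of 28 family clonotypes were expanded in CON, and 2 of 28 and 3 of 31 in KO. CON replicate 2 thus lay above the pooled share of the other CON clonotypes. The share of expanded clonotypes was not tested. Clonotypes of 10 or more cells held 11.2% of the family's cells and 37.3% of the other cells, while those of 2 to 9 cells held 28.2% and 27.6%. Of 10 or more cells there was 1 family clonotype and there were 32 others, and the largest had 21 and 110 cells. A TRAV12-2 chain found in 17 cells of day 14 KO replicate 2, described below, counts here with 9 cells. In the other 8 a TRAV6-7 chain ranked first by UMIs. At day 5 the shares of expanded clonotypes were 3.05% of 131 and 3.09% of 1102. By member, 17.6% of TRAV12-3, 13.3% of TRAV12-1 and 11.9% of TRAV12-2 clonotypes were expanded at day 14, with largest clonotypes of 4, 2 and 21 cells. This order held in neither genotype alone. At day 14, in CON 8 of 33 TRAV12-3, 5 of 32 TRAV12-2 and 1 of 9 TRAV12-1 clonotypes were expanded, and in KO 1 of 18, 3 of 35 and 1 of 6.

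Low expansion at day 14 was shared by other segments. Over the pooled day 14 libraries 39.4% of the family's paired cells were in expanded clonotypes, against a median of 53.5% over the 24 other merged TRAV segments with at least 20 clonotypes there, iNKT-type cells left out. The segments ranged from 25.9% (TRAV14-3) to 88.2% (TRAV7-6), and 4 of the 24 were at or below the family. By member the share was 23.5% for TRAV12-1, 36.4% for TRAV12-3 and 43.8% for TRAV12-2. In TRAV7-6, TRAV7-5, TRAV10 and TRAV14-1 a clonotype had 4.34 to 5.23 cells on average, against 1.41 in the family and a median of 1.69 over the 24 segments. These segment values were added after the data had been seen and are a description.

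Within the family, cells in expanded clonotypes made up 48.9 ± 3.22% in day 14 CON and 23.9 ± 11.0% in day 14 KO (SD, n = 2 each). The KO libraries were both below the CON libraries at day 14. The other conventional cells had the same order, with 69.0 ± 0.198% in CON and 57.6 ± 3.63% in KO. The day 14 KO libraries also held fewer paired cells, 478 and 572 against 1189 and 696 in CON. The shares were not adjusted for the number of cells, and its part in the order was not tested. Over both days the gap between the family and the others differed between genotypes by -10.5 points, KO minus CON, which did not pass (exact permutation within day, p = 0.278, added after values had been seen). With both days joined, KO minus CON was -19.8 points and did not pass (exact permutation p = 0.167, adjusted over 4 measures 0.667), and without day 5 CON replicate 2 it was -12.5. The share was 7.27 ± 14.5% at day 5 and 36.4 ± 15.9% at day 14 (n = 4 each), a difference of 29.2 points at the smallest p the design allows (exact permutation p = 0.0556, adjusted 0.222). The other measures by genotype and day, CDR3 length, TRAJ number and the share with a second TRA chain, had exact permutation p-values of 0.444 to 0.833.

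The family was close to the other conventional cells in the remaining measures. Its TRA CDR3 averaged 13.6 residues in both, with a difference of 0.02, and its TRB CDR3 14.0 against 13.8 residues (exact sign-flip p = 0.0781, adjusted 0.313). The mean TRAJ number was 28.6 against 29.3, so the opposite positions of the D copies and the other copies nearly cancelled in the family mean (difference -0.71, adjusted exact p = 0.800). A second productive TRA chain was found in 11.0% of family clonotypes and 11.2% of the others. A partner of the Vbeta8 group (TRBV13) was found in 19.0% against 20.7%, and a TRBJ2 segment in 65.3% against 69.1%. None of these passed.

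The sequences of the largest clonotypes are shown because single clonotypes held up to 51.2% of a member's cells in a library. The only one of 10 or more cells had 21 cells in day 14 CON replicate 1, 51.2% of the TRAV12-2 cells there and 1.77% of its paired cells, the 7th largest clonotype there. It joined TRAV12D-2 to TRAJ57 and paired with TRBV13-1 and TRBJ1-6. At day 5 the largest had 7 cells in CON replicate 2, 21.2% of the TRAV12-2 cells there, and joined TRAV12-2 to TRAJ22 with TRBV3. The largest of TRAV12-3 had 4 cells in day 14 CON replicate 1, with TRAJ27 and TRBV12-1. Capitals in the TRA CDR3 below mark the stretch from the first base that departs from the most common sequence of the V copy to the base before the match to the most common end of the TRAJ begins, both read from these libraries.
21 cells, TRA: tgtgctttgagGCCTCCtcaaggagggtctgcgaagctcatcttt
21 cells, TRB: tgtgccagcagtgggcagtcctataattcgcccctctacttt
7 cells, TRA: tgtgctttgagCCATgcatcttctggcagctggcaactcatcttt
4 cells, TRA: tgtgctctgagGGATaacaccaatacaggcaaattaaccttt

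The stretch was 6 bases long in the 21-cell receptor and 4 in each of the other 2, and single bases inside it can equal the common V base. None of the 3 TRA sequences was found in another library. At day 5 every TRAV12-1 clonotype had 1 cell. The most frequent at day 14 had 2 cells, in CON replicate 1 with TRAJ35 and TRBV14 and in KO replicate 2 with TRAJ26 and TRBV3, both from TRAV12D-1. That of TRAV12-3 at day 5 had 2 cells with TRAV12D-3, TRAJ23 and TRBV26, in CON replicate 2.

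A T cell can rearrange both alleles of TRA and carry a second productive alpha chain. A TRAV12-2 chain joined to TRAJ39 occurred in that setting in day 14 KO replicate 2, and it was singled out after its values were seen. It was the chain with the most UMIs in 9 cells paired with TRBV3, and the second chain, behind a TRAV6-7 chain, in 8 further cells with the same TRB. Of the 21 cells of that library with this TRB sequence, 17 carried the TRAV12-2 chain. A rule that takes the chain with the most UMIs therefore splits these cells between TRAV12-2 and TRAV6-7.
17 cells, TRAV12-2 chain: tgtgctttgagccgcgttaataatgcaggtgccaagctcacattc

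The family used 43 TRAJ, 21 TRBV and 12 TRBJ segments. The leading TRAJ partners of TRAV12-2 were TRAJ22 (11 of 129 clonotypes), TRAJ23 (9) and TRAJ39 (7). Those of TRAV12-3 were TRAJ23 (12 of 101), TRAJ26 (7) and TRAJ31 (6), and TRAV12-1 was led by TRAJ26 (4 of 34), with TRAJ13 and TRAJ17 at 2 each beside other segments at the same number. TRAJ23 thus stood at 11.9% of TRAV12-3 clonotypes, against 5.18% of other conventional clonotypes. Those 12 TRAV12-3 clonotypes came from 5 libraries, and TRAV12-3 alone was not compared by library. In the whole family the TRAJ23 share over libraries was 8.28 ± 8.14% against 5.22 ± 1.21% (SD, n = 8). It was above the others in 4 of 8, and the difference was not tested.

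TRBV3 was the leading beta segment of TRAV12-2 (18 of 129 clonotypes, 14.0%) and of TRAV12-3 (12 of 101). In the whole family it was found in 34 of 264 clonotypes, 12.9%, against 12.3% of the other conventional clonotypes. TRAV12-2 followed with TRBV5 (13) and with TRBV13-1 and TRBV19 (10 each), and TRAV12-3 with TRBV15 (8) and with TRBV26 and the joint name TRBV12-2+TRBV13-2 (7 each). TRAV12-1 was led by TRBV1 (5) and TRBV3 (4), with TRBV12-1, TRBV13-3, TRBV14 and TRBV16 at 3 each. TRBV15 made up 7.92% of TRAV12-3 clonotypes against 2.48% of the others. For the family by library it was 4.14 ± 3.88% against 2.47 ± 0.918% and above in 5 of 8.

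Few TRAV12 chains recurred between libraries. Of 252 distinct TRA CDR3 residue sequences of the family, 9 (3.57%) were found in 2 libraries and none in more, against 125 of 2078 (6.02%) and up to 6 libraries for other conventional cells. The larger set has more chances of a match, so these shares do not compare the family with the others on equal terms. No paired clonotype of the family was found in more than 1 library. All 9 were in 2 libraries. Of the 5 examined in detail, taken by number of clonotypes and then by alphabetical order of the residues, 3 joined chains of TRAV12-2 and TRAV12-3 that encode the same residues. The chains below, with TRAJ23, are shown because the copies differ by a silent base, in capitals. The 7th base of the CDR3 was t in 94.8% of clonotypes of TRAV12-2 and 90.4% of TRAV12D-2, and c in 100% of TRAV12-3 and TRAV12D-3.
TRAV12-2, day 14 KO replicate 1: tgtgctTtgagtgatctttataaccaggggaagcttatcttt
TRAV12D-3, day 5 KO replicate 1: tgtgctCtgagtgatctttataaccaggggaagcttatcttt

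Another recurrent TRA CDR3 residue sequence was reached by 3 nucleotide forms of TRAV12D-3 and TRAJ23. They were in day 5 CON replicate 1 and, with 2 forms, in day 5 KO replicate 1. All varied at the junction, in capitals, and all encode the same residues. Each was in a cell with its own TRB.
day 5 CON replicate 1: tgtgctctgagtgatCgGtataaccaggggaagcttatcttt
day 5 KO replicate 1: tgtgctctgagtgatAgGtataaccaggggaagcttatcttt
day 5 KO replicate 1: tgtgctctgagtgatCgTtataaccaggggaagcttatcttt

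The TRAV segments whose share of TRA cells over the 8 libraries was most like that of the family were TRAV14-3 (Pearson r = 0.54) and TRAV11 (r = 0.51), of 30 compared. The shares come from the same libraries and sum to a whole, so these values are a description.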

How the data were processed

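The labels' protocols describe tumour dissociation and 5′ capture of single cells in droplets. The submitters' processing notes list Cell Ranger 3.1.0, Seurat 4.0.0, CASAVA 1.8 and R 4.1.2 beside GRCm38 (mm10), with no role for each. The deposited tables list contigs with V and J names, CDR sequences and counts of UMIs, whole and not normalized per the file headers. Deposited read counts and contig lengths were not used, and other values describe the contig.

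Chains were productive, high-confidence contigs of barcodes the authors called cells. Of several TRA or TRB chains, the one with most UMIs was taken. Ties concerned 2 family cells and were broken by contig identifier. Merging D and N copies left 47 of 88 TRAV names. Possible doublets (2 or more TRB or 3 or more TRA chains, 8 family cells) were kept. Segment counts were fitted with edgeR 4.0.16 (R 4.3.3), all 8 libraries together with the library's number of chains as offset, a minimum of 40 and adjusted p under 0.05. DESeq2 1.42.0 was an alternative. The fit was tested on 10 simulated datasets of the day comparison per cell. It called 40% of 100 simulated 2-fold changes and 98.9% of 89 simulated 8-fold changes. Comparisons of KO with CON, within a day 2 libraries against 2, were not simulated. Within-library differences had two-sided exact sign-flip tests, and genotype and day two-sided exact permutation tests. Named were the members and copies, the 3 leading TRAJ and TRBV partners of each member, the 2 most similar TRAV segments, the most frequent clonotype of each member and day, clonotypes of 10 or more cells, and the 5 TRA sequences in most libraries. Of the marker lists, iNKT-type (TRAV11 with TRAJ18) held 655 cells and MAIT-type (TRAV1 with TRAJ33) at most 1 a library. Members, lists and tests were chosen with earlier results of these data known. Same-numbered libraries did not deviate together (r from -0.15 to 0.08).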

Additional observations from a re-analysis of the deposited data

Results flagged for a closer look

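TRAV12 segments were also found outside the chains that defined the family's cells. Among non-productive TRA contigs in cells, 199 of 1729 (11.5%) carried a TRAV12 segment, 37 of TRAV12-1, 106 of TRAV12-2 and 56 of TRAV12-3. By library the share was 12.2 ± 3.78% (SD, n = 8, from 6.25% to 16.2%), against 8.56 ± 2.31% of productive contigs without iNKT-type chains, higher in 7 of 8 (exact sign-flip p = 0.0703). The 199 contigs were 147 distinct rearrangements within libraries, and 91 had no CDR3 read. In barcodes not called cells, 74 of 969 TRA contigs (7.64%) were TRAV12. As a second productive TRA chain TRAV12 occurred in 38 of 563 (6.75%), 16 of them among the 97 of day 14 KO replicate 2, where 8 were the TRAV12-2 chain joined to TRAJ39 that is described above. These contigs lie outside the measurement compared in the report, and what sets their shares was not tested.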

How the results depend on the processing

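Precision was limited by 2 libraries a group and by 3 to 41 cells of a member in a library. No member was called in any contrast under any alternative, and the direction of small log2 ratios varied. Per cell, chains of 2 or more UMIs turned the day 5 KO to CON ratio of TRAV12-2 to 0.040 and of TRAV12-3 to -0.040, and every productive TRA chain turned TRAV12-3 over both days to 0.016. The day 14 to day 5 ratio of TRAV12-2 was 0.077 with TMM factors and 0.032 with DESeq2, and that of TRAV12-3 0.079 with copies kept apart. Per clonotype without iNKT-type cells, TRAV12-3 was 0.012 for KO to CON at day 5 and -0.082 for day 14 to day 5, the family's clonotype share changed by -0.47 points between days and its cell share by -3.85. Without doublets the family minus others was -0.00131 residues of TRA CDR3 and 0.198 points for a second TRA chain. With iNKT-type cells kept among the others these were -0.258 and 1.70, and the TRAJ number differed by 1.62. The authors' clonotype identifier gave 0.277 points for the second chain. TRAV12-1 minus TRAV12-3 was 0.0786 CDR3 residues and -0.209 in TRAJ number with chains of 2 or more UMIs, 0.0902 residues and -2.08 points of clonotypes (adjusted exact p = 0.0586) without doublets, and 0.020 residues over cells. The cause was not tested.

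Leaving out 1 library at a time, TRAV12-1 stayed below TRAV12-2 by -3.09 to -2.70 points of cells and -3.34 to -2.87 of clonotypes, and below TRAV12-3 by -1.84 to -1.54 and -2.33 to -1.99. None of these passed, since the smallest exact p of 7 libraries is 0.0156. Log2 ratios ran over 0 per cell for TRAV12-2 (day 5 KO to CON -0.58 to 0.58, day 14 to day 5 -0.21 to 0.29, difference between days -0.064 to 1.10) and TRAV12-3 (day 5, -0.40 to 0.38). Per clonotype they did so at day 5 for TRAV12-2 (-0.11 to 0.56) and TRAV12-3 (-0.59 to 0.37), and for the difference between days of TRAV12-3 (-0.79 to 0.17). Family minus others ran from -0.0633 to 0.0830 TRA residues and from -1.99 to 0.892 points of second chains. Between members, TRAV12-2 minus TRAV12-3 was -0.0109 to 0.347 residues, and TRAV12-1 minus TRAV12-3 -0.112 to 0.107 residues, -14.7 to 1.70 points of cells in expanded clonotypes and -0.707 to 1.68 in TRAJ number. In the family, KO minus CON was -4.35 to 2.01 points of second chains, -0.916 to 2.69 in TRAJ number and -0.393 to 0.946 points of cells, and day 14 minus day 5 -2.71 to 0.897 in TRAJ number. The D copies stayed 9.12 to 12.1 TRAJ segments below the others in each setting run.

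With the replicate number as a replicate block no member was called, for instance TRAV12-2 per clonotype at day 14 with a log2 ratio of 0.55 (edgeR adjusted p = 0.669). The block called 7 segments per cell and 13 per clonotype between days. Without iNKT-type cells 2 and 5 segments were called between days, against 10 and 13, and DESeq2 called 5 per clonotype. Without day 14 KO replicate 2, 9 segments were called for KO against CON per cell at day 14, 3 for the difference between days and 7 per clonotype between days. Without day 14 CON replicate 1 or KO replicate 1, 1 and 2 were called at day 14 per cell, and chains of 2 or more UMIs gave 1 per clonotype. Without day 5 CON replicate 1, day 5 CON replicate 2 or day 5 KO replicate 1, 3, 6 and 6 were called per cell between days. In the comparisons added after seeing the data, the change from day 5 to day 14 of the expansion gap between family and others ran from -31.4 to -13.5 points in all settings run.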
